A study of Mus musculus with 391 samples.

Results

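The genes described here encode the subunits of the respiratory chain and the ATP synthase. They were taken from the deposited read count table by symbol: every gene whose symbol marks it as a subunit of NADH dehydrogenase (complex I), succinate dehydrogenase (complex II), the cytochrome bc1 complex (complex III), cytochrome c oxidase (complex IV) or the ATP synthase (complex V), leaving out symbols that mark a pseudogene (those with -ps or Gm). The rule found 105 of the 56941 genes in the table, 92 encoded in the nucleus and 13 in the mitochondrial genome. Of the nuclear members 41 belong to complex I, 4 to complex II, 8 to complex III, 21 to complex IV and 18 to complex V; of the mitochondrial ones 7, 0, 1, 3 and 2. A total of 88 members (80 nuclear, 8 mitochondrial) reached 1 CPM (reads scaled to a total of 1e+06 gene reads) in at least one class and are called measured. The other 17 stayed below that level, and 10 of them had no read in any cell. Among the unmeasured are Ndufs6b, Cox6c2, Ndufb4c and Ndufa11b, 4 members that the GENCODE M21 annotation types as processed pseudogenes though their symbols do not show it.

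The cells came from dissociated vessel fragments of brains of adult mice, were sorted into wells and were read by full-length Smart-seq2. Of 391 cells, 280 carry the label microglia and 111 the label endothelial; the sources used here name no strain, genotype, exact age or treatment. No animal is named, so each class is 1 sample: no test between the classes was possible, a level is the class's pooled reads, and every interval in brackets is a 95% exact interval of counting error only. Reads without molecular identifiers are not independent molecules, so these intervals are too narrow for variation between cells or mice.

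The respiratory chain passes electrons from NADH and succinate to oxygen and pumps protons across the inner mitochondrial membrane, and the ATP synthase uses the returning protons to make ATP. Most subunits are made from nuclear genes and imported. A small core of complexes I, III, IV and V is encoded in mitochondrial DNA, which is transcribed from both strands as long RNAs that are cut into single messages, so the messages of each genome are made by a machinery of its own. Complex II is encoded in the nucleus alone. Several complex IV subunits come as paralogs used in different tissues.

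Cells sat on 4 plates. Plates A and B held both classes, with 133 and 147 microglia and 7 and 10 endothelial cells, in separate rows (rows A to H endothelial, rows I to P microglia); plates C and D held 50 and 44 endothelial cells only. Values within plates A and B are given where they turn a direction or differ much from the pooled ones; within them, class and position on the plate cannot be told apart. Microglia had a median of 146506 gene reads (39876 to 504875) and endothelial cells 174345 (83954 to 602175). All 20 microglial and all 20 endothelial marker genes of fixed lists were at least 4-fold higher in their own class. Per cell the microglial list summed to between 4466 and 101882 CPM in microglia and 0 to 2600 in endothelial cells, and the endothelial list to 5.09 to 4887 and 21515 to 67371. Markers of other cells were read too. Choroid plexus epithelial ones summed to 65.5 CPM in microglia and 449 in endothelial cells (highest cell 7569, in microglia). Those of oligodendrocytes summed to 560 and 86.4 (highest 11258, in microglia). Pericyte and smooth muscle markers gave 30.0 and 245 (highest 8348, endothelial), astrocyte and ependymal ones 86.0 and 375. Fibroblast, neuron, erythrocyte and lymphocyte or neutrophil lists reached 43.3 CPM at most in a class. The 10% of each class highest in the other's list, 28 and 11 cells, could be left out with a ratio of mitochondrial shares of 1.82 in place of 1.79. The label microglia covers more than one kind of cell: clustering without the respiratory chain genes gave 187 cells led by Cbr2, Ccl24, Lyve1 and F13a1, genes of border macrophages (cluster 1, border macrophage-like), 56 cells with Sall1 at 458 CPM and P2ry12 at 3341 (cluster 2, microglia-like), and 37 cells with H2-Aa at 7141 CPM (cluster 3, left unnamed). Endothelial cells formed 1 cluster.

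Mitochondrial sequences are shown first, beside their nuclear copies. The mouse nuclear genome holds insertions of mitochondrial DNA, and on chromosome 1 a run of annotated pseudogenes repeats the stretch from the end of mt-Co1 to mt-Nd4. The first bases of mt-Co2 (cytochrome c oxidase subunit 2, GRCm38 chrM:7013-7696, plus strand) and of its copy Gm28661 (GRCm38 chr1:24614885-24615565, minus strand) are printed 5′ to 3′ in lower case, with no capital because no base differs. For mt-Nd3 (complex I subunit 3, chrM:9459-9806, plus strand) and its copy Gm28438 (chr1:24612775-24613119, minus strand) the capital marks the single difference, T3C, counted from the 5′ end of the mitochondrial transcript.
mt-Co2: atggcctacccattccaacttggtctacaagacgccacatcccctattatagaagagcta
Gm28661: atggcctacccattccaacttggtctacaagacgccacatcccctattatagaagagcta
mt-Nd3: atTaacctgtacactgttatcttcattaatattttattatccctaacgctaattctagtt
Gm28438: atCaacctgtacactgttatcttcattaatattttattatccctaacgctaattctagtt

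Each of the copies compared ends just short of the mitochondrial transcript. Over the whole length of the copy 681 of 681 aligned bases were the same in mt-Co2 and Gm28661, and 678 of 678 in mt-Atp6 and Gm10925. The counts were 783 of 783 in mt-Co3 and Gm28437, 294 of 294 in mt-Nd4l and Gm10222, and 344 of 345 in mt-Nd3 and Gm28438. The sequences and coordinates are those of the GENCODE M21 annotation of GRCm38, an older build than the GRCm39 of the deposited counts. Each member's transcript was also cut into all windows of 50 bases, and the share of windows found unchanged in another, non-overlapping gene was counted.

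Of the 13 mitochondrial members, 5 had no read in any of the 391 cells: mt-Co2 and mt-Co3 (complex IV core subunits), mt-Atp6 and mt-Atp8 (the membrane part of the ATP synthase) and mt-Nd4l (complex I). A count of 0 allows up to 0.0631 CPM in microglia and 0.140 in endothelial cells, from 3 reads per class. Windows repeated in another gene made up 100% of mt-Co2, 99.9% of mt-Co3, 99.5% of mt-Atp6 and 98.8% of mt-Nd4l. For mt-Nd3 the share was 98.0%, and it had 76 reads in all, 53 in microglia and 23 in endothelial cells. The copies themselves were nearly unread, with 3 reads for Gm28661, 1 for Gm10925, 4 for Gm28437, 1 for Gm28438 and 0 for Gm10222.
No level can thus be given for the mitochondrial genes of complex V, and for complex IV only that of mt-Co1. mt-Atp8 is the exception to the pattern of shared windows: 0% of its windows recurred in an annotated transcript. It lies between mt-Co2 and mt-Atp6 and overlaps the latter over 21.1% of its length, and the chromosome 1 copies of those neighbours flank a stretch with no annotated copy, which the window search did not cover. Whether the counting dropped reads that fit both genomes is not given in the sources used here, and its part in these zeros was not tested.

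The other 7 mitochondrial members were well read. The share of repeated windows was 0% for mt-Cytb, mt-Nd1 and mt-Nd6, 7.61% for mt-Nd5, 8.19% for mt-Nd2, 51.1% for mt-Co1 and 62.2% for mt-Nd4. Per kilobase of whole transcript, microglia had 2078 CPM of mt-Cytb, 1923 of mt-Nd1, 1493 of mt-Co1, 748 of mt-Nd5, 477 of mt-Nd4, 399 of mt-Nd6 and 352 of mt-Nd2. Counting only the unique windows as length raised mt-Co1 to 3155 and mt-Nd4 to 1310 CPM per kilobase and left the others between 403 and 2171. mt-Co1 thus moved from the third to the first place in that order, and mt-Nd4 from the fifth to the fourth. Such a length is apt only if reads of repeated windows were not counted, which the sources used here do not give.

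**Figure D1:**
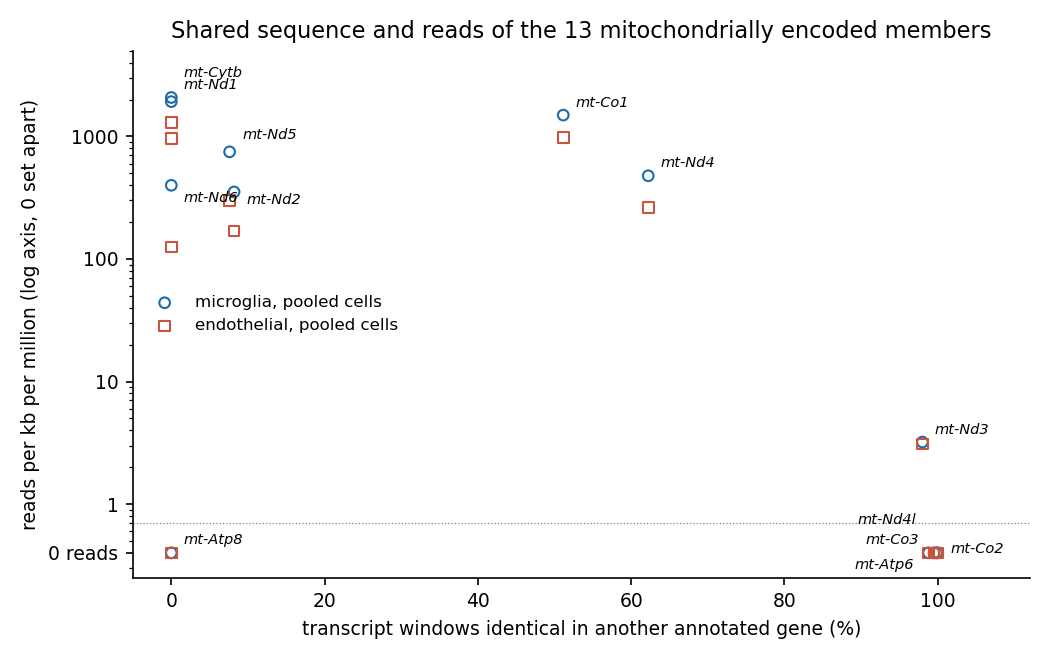
Share of each mitochondrially encoded member's 50-base windows that recur in another annotated gene (x, percent) against its pooled CPM per kilobase (y, log axis, members with 0 reads set apart at the bottom), in microglia (circles) and endothelial cells (squares). The 4 members with shares of 98.8% or more had no read, mt-Nd3 at 98.0% had about 3 CPM per kilobase, and mt-Atp8 had no read at a share of 0%.

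Together the mitochondrial members took a larger part of the reads in microglia than in endothelial cells, and the nuclear members did not. They made up 0.912% (0.909 to 0.915) of gene reads in microglia and 0.509% (0.506 to 0.512) in endothelial cells, a ratio of 1.79 (1.78 to 1.81). Plate A alone gave 1.71 and plate B alone 1.54. On each of the 4 plates endothelial cells lay lower (0.607%, 0.548%, 0.472% and 0.528% on plates A to D) than microglia did on either of theirs (1.04% and 0.844%).

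The nuclear members took 0.909% (0.907 to 0.912) of gene reads in microglia and 0.971% (0.967 to 0.975) in endothelial cells, a ratio of 0.936 (0.931 to 0.941). Within plates A and B that ratio was 0.801 and 0.896. Mitochondrial reads per nuclear read of these genes came to 1.003 in microglia and 0.524 in endothelial cells, 1.92 times apart (2.13 within plate A and 1.72 within plate B). Endothelial cells held between 0.508 and 0.549 on all 4 plates, and microglia 1.11 and 0.944. The mitochondrial sums hold no read of mt-Co2, mt-Co3, mt-Atp6, mt-Atp8 or mt-Nd4l. The shares and ratios thus compare the classes in the reads counted and do not give the full balance of the genomes.

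Single cells showed the same order with overlap. The mitochondrial share of a cell's gene reads had its lowest value at 0.0642%, its median at 0.906% and its highest at 4.94% in microglia, against 0.185%, 0.498% and 1.10% in endothelial cells. The medians of the nuclear share were 0.881% and 0.879%, with ranges of 0.121% to 2.69% and 0.371% to 2.39%. As counted, mitochondrial reads outnumbered nuclear ones in 153 of 280 microglia (54.6%) and in 5 of 111 endothelial cells (4.50%), given as a description. The classes thus overlapped almost fully in the nuclear share and less in the mitochondrial share.
Depth moved with the mitochondrial share in one class: Spearman's rho across cells, given as a description, was -0.31 in 280 microglia (-0.29 on plate A, -0.16 on plate B) and 0.00 in 111 endothelial cells, and the share and the depth have the cell's reads in common. With the 34 microglia under 70000 reads left out, the ratio of mitochondrial shares was 1.74; no endothelial cell was that shallow. Any part of depth beyond this was not tested.

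**Figure D2:**
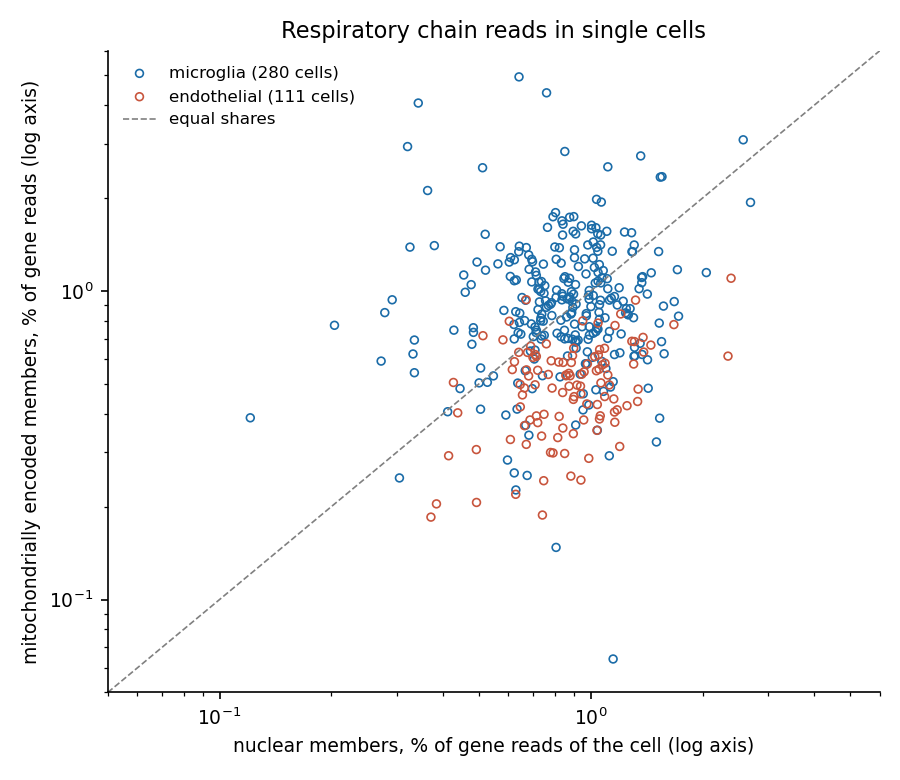
Each point is 1 cell: nuclear members (x) and mitochondrially encoded members (y), each as percent of the cell's gene reads, on log axes, with 280 microglia in blue and 111 endothelial cells in red and a dashed line where both shares are equal. Of the microglia 153 lie above the line, of the endothelial cells 5.

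By gene, all 8 measured mitochondrial members had a log2 ratio of microglia over endothelial cells above 0, except that mt-Nd3 lay below 0 under TMM and median-of-ratios scaling, without plate C, in cells of 70000 reads or more, and in cluster 3 set against all endothelial cells. Log2 ratios here and below are of CPM plus 1, while folds and their intervals are of CPM without it. The median was 0.93, set against 0.36 over all 14989 genes measured (0.80 against 0.23 under median-of-ratios scaling). Within plates A and B it was 0.86 and 0.67, set against 1.73 and 1.87 over all genes measured there. The few endothelial cells on these plates leave many genes unread in that class, and their part in the all-gene medians was not tested. On these plates the mitochondrial members lay below the median gene and not above it. Their order ran from mt-Nd3 (0.03) through mt-Co1 (0.60), mt-Cytb (0.67), mt-Nd4 (0.87), mt-Nd1 (0.99), mt-Nd2 (1.05) and mt-Nd5 (1.32) to mt-Nd6 (1.65). Within plate A all 8 were above 0 as well, and within plate B all 7 measured there. The ratio of mt-Nd3 rests on 76 reads and its interval, 0.624 to 1.77, includes 1; the intervals of the other 7 lay above 1.

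mt-Cytb, the one mitochondrially encoded subunit of complex III, stood at 2377 CPM in microglia (cells from 46.9 to 15398, median 2454) and 1493 in endothelial cells (27.9 to 4611, median 1462). Its level was 2851 and 2119 CPM in microglia of plates A and B and 1533, 1348, 1393 and 1633 in endothelial cells of plates A to D. All plate values of microglia were higher than all those of endothelial cells, a ratio of 1.59 (1.57 to 1.61).

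mt-Co1, the catalytic core of complex IV, stood at 2306 CPM in microglia (cells from 175.8 to 11700, median 2380) and 1519 in endothelial cells (160.4 to 3436, median 1580), a ratio of 1.52. mt-Nd1, part of the membrane arm of complex I, had 1840 CPM (median cell 1751) against 925 (846), 1.99-fold (1.96 to 2.02) more in microglia. Both genes were read in all 391 cells. The plate values of the classes did not overlap for either: for mt-Nd1 they were 2026 and 1738 CPM against 793 to 1253.

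mt-Nd5, a proton-pumping subunit of complex I, had 1365 CPM in microglia (median cell 1213, highest 7623) and 547 in endothelial cells (469 and 2424), a ratio of 2.50 (2.45 to 2.55). Within plates A and B its levels were 1554 against 876 and 1262 against 692 CPM. mt-Nd4, another pumping subunit, had 658 against 360 CPM, 1.83-fold (1.78 to 1.87) more. mt-Nd2 had 366 against 176 CPM, 2.08-fold (2.01 to 2.15), with a wide gap within plate A (402 against 60.3) and a narrower one within plate B (346 against 218).
In all 3 the microglia of either plate lay above the endothelial cells of every plate.

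mt-Nd6, the one member transcribed from the other strand of the mitochondrial DNA, had the highest ratio of the mitochondrial genes, 207 against 65.2 CPM or 3.18-fold (3.00 to 3.36). It was read in 248 of 280 microglia and 79 of 111 endothelial cells. The gap was small within plate A, at 246 against 213 CPM in 7 endothelial cells, and wide within plate B, at 186 against 63.2. Use of strand in the counting is not given in the sources used here, so antisense reads over mt-Nd6 cannot be told apart from its own.

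**Figure D3:**
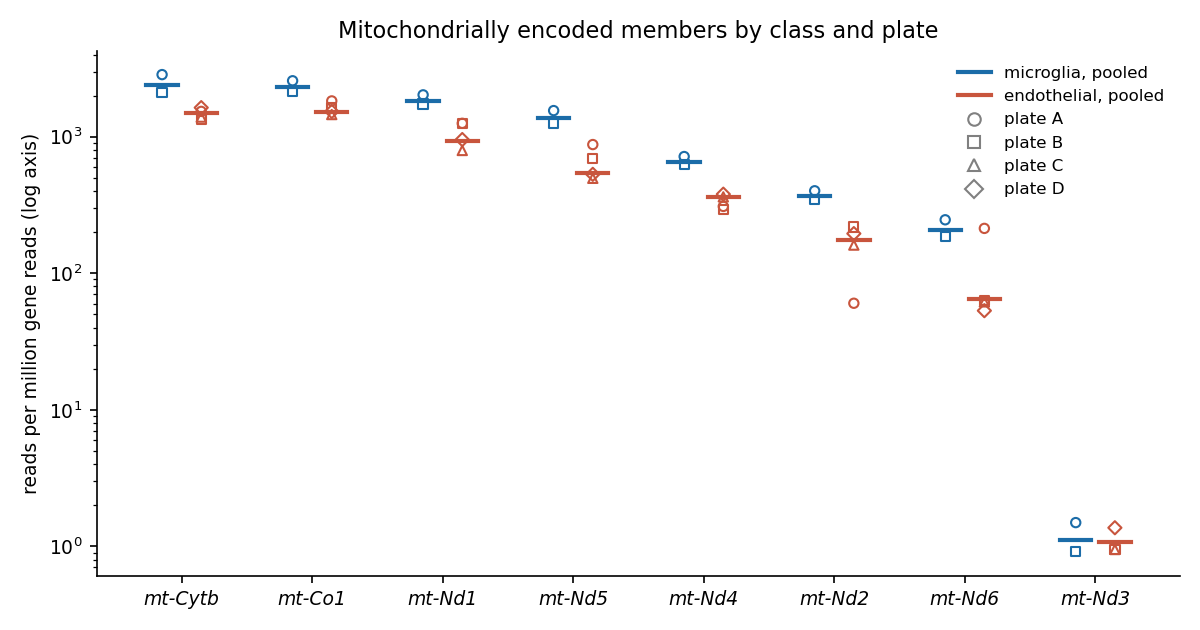
Levels of the 8 measured mitochondrially encoded members in CPM (log axis), microglia in blue and endothelial cells in red; bars are the pooled class and open symbols the plates (no symbol where the plate had no read, as for mt-Nd3 in endothelial cells of plate A). For mt-Cytb, mt-Co1, mt-Nd1, mt-Nd5, mt-Nd4 and mt-Nd2 the plate values of the classes do not overlap.

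The nuclear members were close between the classes. Their median log2 ratio was -0.04, with 39 of 80 above 0 and 41 below, and -0.09 and -0.13 within plates A and B, where the median of all genes was also far higher than pooled. The middle of the list, between its quartiles, ran from -0.42 to 0.31, while that of all genes ran from -0.81 to 1.63. By complex the medians were -0.19 (complex I, 36 measured), -0.12 (II, 4), 0.11 (III, 8), 0.18 (IV, 15) and 0.21 (V, 17). Within plate A they were -0.39, -0.70, 0.30, 0.11 and -0.36, and within plate B -0.06, -0.56, -0.17, 0.43 and -0.25, so complex V turned on both plates and complex III on plate B. The summed reads of a complex, which follow its abundant members, gave ratios of 0.933 for complex I, 0.848 for II, 1.09 for III, 1.12 for IV and 0.827 for V, so for complex V the pooled sum and median lay on opposite sides of equality, while within plates A and B both lay below it. Under median-of-ratios scaling complex III turned, with a median of -0.02 and a ratio of sums of 0.995, and the other complexes kept their side. Only for complexes II and V did the sums lie below 1 both pooled and within plates A and B (0.659 and 0.609 for II, 0.818 and 0.801 for V).

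Counting members at least 2-fold apart, 6 of 88 were higher in microglia (mt-Nd2, mt-Nd5, mt-Nd6, Cox6a2, Cox6b2, Atp5l) and 3 in endothelial cells (Ndufs5, Ndufb6, Ndufa4l2), and 79 lay between. Without the cell that held most of a member's reads in the higher class, 5 of the 6 (not Cox6a2) and 1 of the 3 (Ndufs5) were still 2-fold apart. Over all genes measured the shares were 37.2% higher in microglia and 22.1% higher in endothelial cells. At 4-fold, 1 member (Cox6b2) was higher in microglia and 0 in endothelial cells, beside 19.9% and 11.7% of all genes. Within plate A the counts at 2-fold were 16 and 14 of 89, beside 60.9% and 19.8% of all genes, and within plate B 17 and 8 of 86, beside 62.7% and 19.1%. The few endothelial cells there leave many genes unread in that class. Under TMM or median-of-ratios scaling 6 members instead of 3 were 2-fold higher in endothelial cells, beside 23.2% and 23.9% of all genes.

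**Figure D4:**
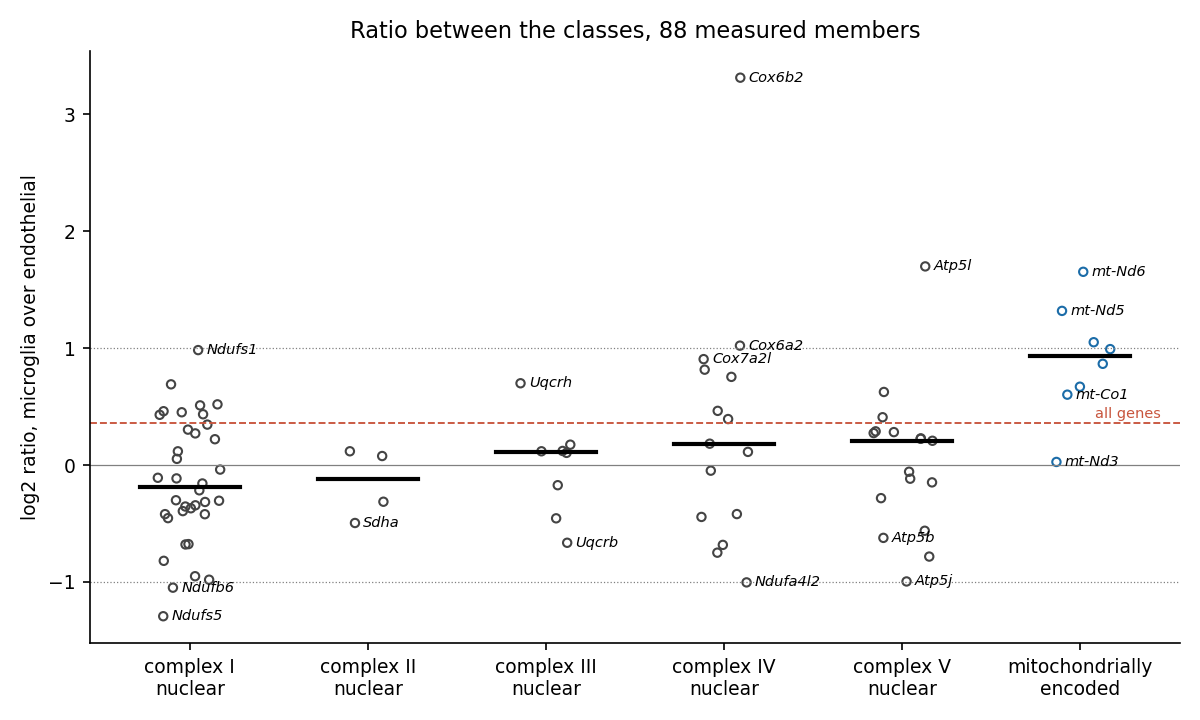
Log2 ratio of microglia over endothelial cells for the 88 measured members, grouped by complex for nuclear genes and together for mitochondrially encoded ones; thick bars are group medians, dotted lines mark 2-fold, and the dashed line is the median of all genes (0.36). The nuclear medians lie between -0.19 and 0.21 and the mitochondrial median at 0.93.

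In complex I the most abundant nuclear members per kilobase were Ndufa7, Ndufa6 and Ndufb10, accessory subunits around the core. Ndufa7 stood at 115 CPM in microglia and 111 in endothelial cells, Ndufa6 at 112 and 115, and Ndufb10 at 136 and 147. The intervals of the ratios of Ndufa7 and Ndufa6 include 1. Direction varied by plate: within plate A Ndufa7 had 122 against 130 CPM, Ndufa6 124 against 96.7 and Ndufb10 131 against 301, and within plate B 112 against 201, 105 against 156 and 139 against 114. Ndufs1, the large iron-sulphur subunit that receives electrons from NADH, had the highest ratio among members at 10 CPM or more, 115 against 57.8 CPM (1.99-fold, 1.87 to 2.12). It was read in 85 of 280 and 30 of 111 cells, and its endothelial level varied between 1.41 and 88.9 CPM over the plates. Ndufs5, an accessory subunit, lay at the other end, 6.21 against 16.7 CPM, 2.68-fold (2.29 to 3.14) higher in endothelial cells. Within plate A it was nearly level, at 9.72 against 10.4 CPM. Ndufb6 stood at 28.2 against 59.5 CPM and was lower in microglia within both shared plates.

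Complex II feeds in electrons from succinate, and none of its 4 subunits was 2-fold apart. Sdha, the flavoprotein that oxidises succinate, had 267 CPM in microglia and 376 in endothelial cells, with plate values of 278 and 261 against 119, 530, 207 and 550. The plates thus overlapped. Sdhb, the iron-sulphur subunit, stood at 193 against 178 CPM and Sdhd, a membrane anchor, at 97.9 against 92.7. Both were lower in microglia within each shared plate, Sdhb at 159 against 199 CPM on plate A and 212 against 269 on plate B, and Sdhd at 104 against 222 and 94.4 against 121.

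Complex III showed its highest ratio in Uqcrh, the hinge protein, at 147 CPM in microglia and 90.2 in endothelial cells (1.63-fold, 1.55 to 1.72), read in 70.0% and 62.2% of the cells. On the plates it lay at 138 and 152 CPM in microglia and from 51.5 to 128 in endothelial cells, without overlap. Uqcrb had the lowest, 21.9 against 35.3 CPM, and 43.2% of its windows recur in other genes. On plate A it was nearly level, at 15.4 against 16.6 CPM. Uqcrc1, a core protein, was at 222 against 196 CPM and Uqcr10, a small subunit, at 57.9 against 79.8. Both were higher in microglia on plate A (287 against 201 and 53.5 against 38.5) and lower on plate B (186 against 245 and 60.3 against 91.5).

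Complex IV held the most abundant nuclear member per kilobase, Cox4i1, the ubiquitous form of subunit 4. It had 719 CPM in microglia (cells from 0 to 4683, median 670) and 521 in endothelial cells (0 to 2510, median 409), a ratio of 1.38 (1.35 to 1.41). Plate values were 728 and 714 CPM against 672, 547, 412 and 617, so they did not overlap, though on plate A the gap was small. Cox8a stood at 220 against 167 CPM and Cox6a1 at 192 against 257. Ndufa4, first assigned to complex I and now placed with complex IV, had the lowest ratio of the complex among members at 10 CPM or more, 80.6 against 136 CPM and was lower in microglia within both shared plates (94.2 against 164 and 73.2 against 209).

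The 3 nuclear members of the ATP synthase most abundant per kilobase, Atp5b, Atp5a1 and Atp5g3, were all lower in microglia. Atp5b, the catalytic beta subunit, had 619 CPM in microglia (median cell 225) and 954 in endothelial cells (median cell 792), 1.54-fold (1.51 to 1.57) more in the latter. Plate B did not show it, with 613 against 618 CPM, while plate A had 632 against 1211. Atp5a1, the alpha subunit, stood at 698 against 850 CPM, and Atp5g3, a subunit of the proton-driven c-ring, at 141 against 243, though higher in microglia within plate B (125 against 102).
Atp5j, coupling factor 6 of the stalk, had the lowest ratio of the complex, 117 against 235 CPM (2.00-fold, 1.93 to 2.08). It was read in 176 of 280 microglia and 100 of 111 endothelial cells, and its plate values, 119 and 117 against 248, 339, 237 and 206, did not overlap. Atp5e, the epsilon subunit, had the highest ratio among members at 10 CPM or more, 110 against 71.1 CPM (1.55-fold, 1.46 to 1.64), but on plate A it stood at 109 against 114. Atp5l, 2-fold higher in microglia by the count above, rests on 114 reads in 3 microglia and 1 read in endothelial cells, and 68.5% of its windows recur in other genes.

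Paralogs of complex IV differ in where they are used. In the pair whose promoters are printed here, Cox6b1 is expressed in most tissues and Cox6b2 is known from testis. The 250 bases before the start of each gene are printed from the RefSeq table (GRCm38.p6, both on the minus strand, Cox6b1 at chr7:30626115-30626364 and Cox6b2 at chr7:4753095-4753344), 5′ to 3′. Capitals mark an ETS motif, searched as CCGGAAG on both strands, which the Cox6b1 window holds in reverse. In GENCODE M21 Cox6b1 starts further upstream, at chr7:30626151. The last bases of its window, with the marked motif, thus lie inside that gene model.
Cox6b1: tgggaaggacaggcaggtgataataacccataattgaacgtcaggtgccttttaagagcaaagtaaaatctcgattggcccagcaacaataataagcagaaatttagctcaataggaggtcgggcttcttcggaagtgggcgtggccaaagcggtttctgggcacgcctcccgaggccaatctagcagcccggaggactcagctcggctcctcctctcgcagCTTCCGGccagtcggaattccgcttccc
Cox6b2: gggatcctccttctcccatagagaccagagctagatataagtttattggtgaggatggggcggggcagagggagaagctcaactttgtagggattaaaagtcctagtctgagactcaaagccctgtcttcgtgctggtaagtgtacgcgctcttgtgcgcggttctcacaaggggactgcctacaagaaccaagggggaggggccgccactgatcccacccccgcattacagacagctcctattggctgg

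The Cox6b2 window holds none of the 3 motifs searched. That does not set it apart, because Atp5b, Cox5a and Cox7a2, read in both classes, hold none either. Any link of the motifs to the levels was not tested. Of the 92 nuclear members 70 had a promoter in the table. Searched from 250 bases before to 50 after the start, the ETS motif was in 17 of them (24.3%) and in 9.93% of all 27025 promoters, the YY1 motif AAGATGGC in 10 (14.3%, beside 3.19%) and the NRF1 motif GCATGCGC in 10 (14.3%, beside 3.05%). The ETS and NRF1 families and YY1 are known regulators of respiratory chain genes. These are matches of letters, with overlaps between motifs not removed.

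Cox6b2 had the largest log2 ratio of the measured members, 3.31 on CPM plus 1. It had 646 reads in microglia, or 13.6 CPM, and 10 in endothelial cells, or 0.468 CPM, a ratio of 29.0 (15.7 to 60.9). The reads came from 18 of 280 microglia, in which it ranged from 5.00 to 593 CPM with a median of 147, and from 3 of 111 endothelial cells, with 15.9 CPM at most. The remaining cells had none, and 1 microglia cell held 31.6% of the class's reads of the gene. Per kilobase it made up 8.30% of the pair Cox6b1 and Cox6b2 in microglia (6.12% on plate A, 9.60% on plate B) and 0.353% in endothelial cells, all on plate C. Cluster 3 stood apart, with 388 of the 646 reads in 7 of its 37 cells and a share of 23.5%, against 4.18% in cluster 1 and 4.32% in cluster 2. The cell with most reads, 204, lies in cluster 3: without it the share was 13.0% in cluster 3 (184 reads in 6 of 36 cells) and 5.86% in all microglia, and the log2 ratio was 2.82. Cox6b1 itself stood at 159 and 140 CPM pooled, but was lower in microglia within both shared plates (173 against 215 and 151 against 195).

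The second paralog pair with a clear gap was Cox7a2 and Cox7a2l. Cox7a2 is the common subunit 7A of complex IV, and Cox7a2l (SCAF1) is a related protein that joins complexes III and IV in supercomplexes. Cox7a2l had 174 CPM in microglia (median cell 90.3) and 92.6 in endothelial cells (median cell 7.14), while Cox7a2 had 61.9 and 100.0. Within plate A Cox7a2l was nearly level, at 175 against 163 CPM, while Cox7a2 stood at 82.1 against 135. Within plate B they stood at 174 against 76.8 and 51.0 against 71.7. Per kilobase Cox7a2l made up 63.3% of the pair in microglia and 36.2% in endothelial cells. The share was 56.6% and 67.7% in microglia of plates A and B, and 42.5%, 39.6%, 36.4% and 34.8% in endothelial cells of plates A to D, with no overlap. Cox7a2l was highest in cluster 3, at 314 CPM and 76.5% of the pair, against 149 CPM in cluster 1 and 130 in cluster 2; 19.8% of its windows recur in another gene.

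**Figure D5:**
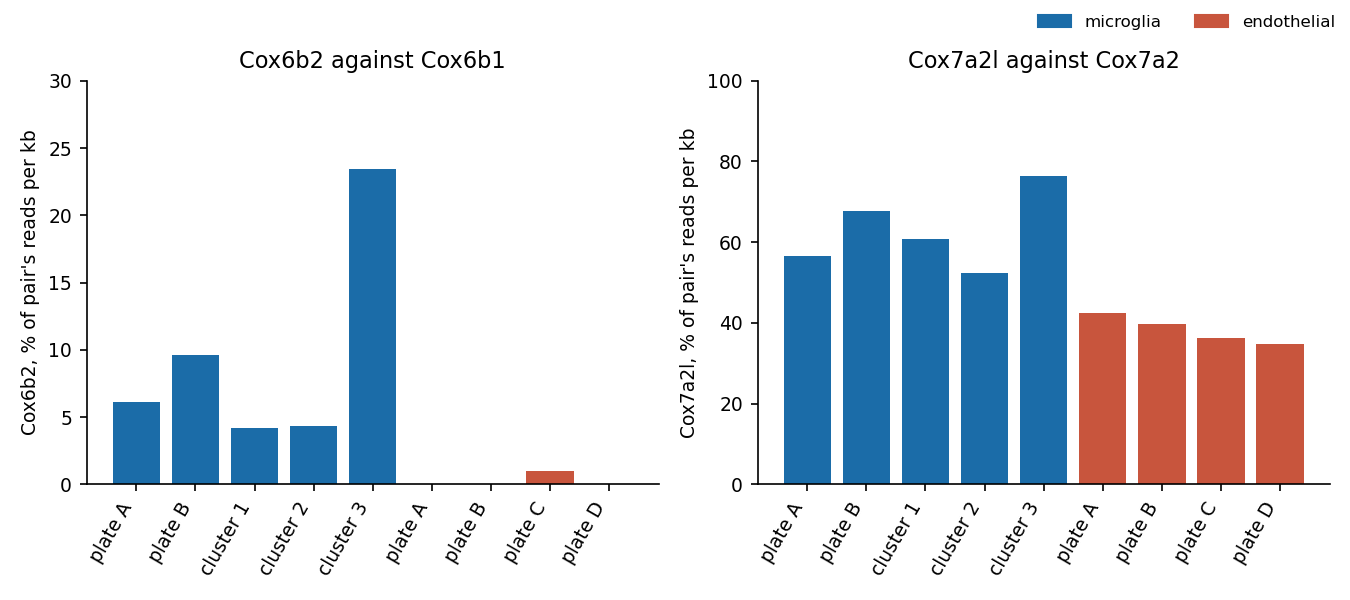
Share of the second paralog in the pair's reads per kilobase (percent, axes from 0 with different upper limits), for Cox6b2 against Cox6b1 and Cox7a2l against Cox7a2, in microglia by plate and by cluster (blue; the same cells counted both ways) and in endothelial cells by plate (red). Cox6b2 reaches 23.5% in cluster 3 (13.0% without 1 cell), and the Cox7a2l shares of microglia, 52.5% or more, all lie above those of endothelial cells, 42.5% or less.

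The other tissue-restricted paralogs were at or near 0. Cox4i2, a form of subunit 4 linked to low oxygen and known from lung and pericytes, had 1 read in microglia and 6 in endothelial cells. Cox6a2 and Cox7a1, the heart and muscle forms, had 67 and 21 reads in microglia, from 4 and 2 cells, and 4 and 1 in endothelial cells. Cox7b2, Cox8b and Cox8c had no read. Ndufa4l2, a gene induced by hypoxia-inducible factors, had 25 reads in 20 microglia and 44 in 9 endothelial cells, and no endothelial read on plates A and B. One endothelial cell held 34 of the 44 reads, and without it the levels were 0.526 CPM in microglia and 0.475 in endothelial cells. Among the c-ring genes, which encode the same mature protein, Atp5g3 made up 99.1% and 99.6% of the pair with Atp5g2, but 87.4% of the windows of Atp5g2 recur in other genes.

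Within the microglia label the balance of the reads counted from each genome differed between clusters, again without the mitochondrial members that had no read. Mitochondrial members took 0.952% of gene reads in cluster 1, 0.993% in cluster 2 and 0.678% in cluster 3, and nuclear members 0.915%, 0.806% and 1.03%. The number of mitochondrial reads per nuclear read was 1.04, 1.23 and 0.661, and it exceeded 1 in 107 of 187, 41 of 56 and 5 of 37 cells. Cluster 3 was thus the closest to endothelial cells (0.524). All 6 mitochondrial members above 100 CPM other than mt-Co1 were highest in cluster 2, among them mt-Nd5 at 1689 CPM against 1333 and 1047, and mt-Cytb at 2686 against 2500 and 1586. mt-Co1 was highest in cluster 1, at 2525 CPM. Cluster 3 had the highest Cox4i1 (917 CPM against 681 and 660) and Atp5b (773 against 567 and 629). Clusters 2 and 3 had median depths of 197266 and 206432 gene reads and cluster 1 of 126827, and their part in these differences was not tested.

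Genes that assemble and serve the chain were taken from fixed lists. At 2-fold, of 15 measured complex I assembly factors 2 were higher in microglia and 5 in endothelial cells, of 4 for complex II 0 and 0, of 6 for complex III 0 and 1, of 22 for complex IV 5 and 2, and of 5 for complex V 0 and 1. Their medians were -0.52, -0.51, -0.36, 0.41 and -0.37. Within plate A they were 3.55, -0.59, -0.73, 0.83 and 0.96, and within plate B -1.03, 1.09, 1.61, 0.84 and 1.10, so that the complex IV list alone kept its direction. Ndufaf3, a complex I assembly factor, had 36.0 CPM in microglia and 85.0 in endothelial cells (33.3 and 68.6 on plate A, 37.4 and 48.6 on plate B), and Higd2a, a small protein of complex IV assembly, 152 and 109 (162 and 18.7 on plate A). Coa4, a complex IV factor of the intermembrane space, had 979 reads in 22 microglia and 1 read in endothelial cells.
Of 23 genes of mitochondrial DNA copying and transcription 7 were 2-fold higher in microglia and 4 in endothelial cells. Their median was 0.05, and 1.82 and 2.15 within plates A and B. Polrmt, the mitochondrial RNA polymerase, stood at 49.4 and 65.8 CPM (22.5 and 182 on plate A, 64.2 and 0.471 on plate B), and Grsf1, an RNA-binding protein of mitochondrial RNA granules, at 103 and 99.0 (99.8 and 163 on plate A, 104 and 0.471 on plate B). Of 78 mitochondrial ribosome genes 6 and 10 were 2-fold apart (median -0.13, but 0.24 and 0.32 within plates A and B). The background is again 37.2% and 22.1% of all genes.

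Of 21 electron carriers and donors outside the complexes, 4 were 2-fold higher in microglia and 2 in endothelial cells (median 0.20, and 1.62 and 0.36 within plates A and B); Cyc1, the cytochrome c1 of complex III whose symbol falls outside the rule, stood at 91.6 and 171 CPM, but at 105 and 96.7 on plate A and 84.5 and 442 on plate B. Of 20 measured citric acid cycle genes 1 was higher in each class, and Ogdh, the E1 subunit of the 2-oxoglutarate dehydrogenase complex, stood at 160 and 466 CPM (135 and 212 on plate A, 173 and 374 on plate B). Of 16 genes of the outer membrane and of mitochondrial mass 3 were higher in each class (median -0.04, but 1.26 and 0.64 within plates A and B), with Hspa9, the matrix chaperone mortalin, at 143 and 179 CPM and Hspe1, the matrix co-chaperonin, at 185 and 28.2. On plate A Hspe1 was nearly level, at 188 and 174 CPM, and on plate B it stood at 183 and 26.9. Of 12 measured carriers and proton leak genes 1 was higher in microglia and 2 in endothelial cells; Ucp2, an uncoupling protein homologue, stood at 1341 and 777 CPM (1635 and 331 on plate A) and Slc25a3, the phosphate carrier, at 518 and 353, though lower in microglia on plate B (448 and 545). Among 12 measured regulators of mitochondrial genes 4 and 2 were 2-fold apart, close to the shares of all genes. Epas1, which encodes HIF-2alpha, had the widest gap of these at 6.08 and 1991 CPM (9.18 and 1277 on plate A, 4.39 and 1710 on plate B).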

How the data were processed

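The deposited table holds raw read counts, whole numbers with no scaling, of 56941 genes in 391 cells. The class of each cell comes from the deposited cell table, and the labels give the same number of cells in each class. The submitters' processing notes list GRCm39, featureCounts, Subread 1.4.6-p5 and SAMtools 1.16.1; which aligner and annotation were used, and how strand, duplicates and reads with several matches were handled, is not given in the sources used here.

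Reads were summed within a class or plate (told apart by the start of the column names) and divided by their total to give CPM. Genes at 1 CPM or above in one class or both were measured, log2 ratios used a pseudocount of 1 CPM, and thresholds of 2-fold and 4-fold were set because 1 sample per class allows no test. Intervals are exact Poisson or binomial at 95%. Lengths and shared 50-base windows come from GENCODE M21, where 5 members had no transcript, and promoters from RefSeq (GRCm38.p6). Clusters were made within each class with scanpy 1.11.5 and leidenalg 0.10.2 on 2000 variable genes, leaving out the respiratory chain and mitochondrial genes. Doublets were not called; cells had been sorted into wells, per the labels. Scripts ran under Python 3.11.15 with pandas 2.3.3, scipy 1.17.1 and numpy 2.4.6, and under R 4.3.3, where edgeR 4.0.16 (TMM) and DESeq2 1.42.0 (size factors) gave scalings only. The intervals and the size rule were tested on simulated Poisson counts only. Those counts have no spread between cells, so the test cannot speak to such spread.

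The members and lists were chosen with earlier results of these data known. The text names all mitochondrial members, in each complex the 3 most abundant per kilobase and the most extreme ratios at 10 CPM or more, and members past 4-fold. It names all paralogs compared except Atp5g1. From some of the further lists it names genes that were among the most abundant or the most extreme. Other genes picked by that rule, and all of those from several lists, are left out. Members of short counts (Ndufb6, Atp5l) and the genes that describe clusters were chosen after their values were seen. Alternatives were single plates, left-out plates, means over cells, cells without signs of the other class, other scalings, pseudocounts, filters and fold sizes.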

Additional observations from a re-analysis of the deposited data

Results flagged for a closer look

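Of the mitochondrial RNAs outside the respiratory chain, the 2 ribosomal RNAs were read in both classes, in counts that no comparison above uses. mt-Rnr1, the small ribosomal RNA, stood at 1785 CPM in microglia and 927 in endothelial cells, a ratio of 1.93 (1.90 to 1.96), and at 2.35 and 2.22 within plates A and B. mt-Rnr2, the large one, stood at 6821 and 7407 CPM, a ratio of 0.921 (0.915 to 0.926), but at 1.18 within plate A and 1.13 within plate B. Endothelial cells of plates C and D had 7583 and 7751 CPM, and those of plates A and B 6621 and 5555. So mt-Rnr1 resembled the mitochondrial messages in its ratio, and mt-Rnr2 did not.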

How the results depend on the processing

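No paired analysis was possible because the cells' numbers only count them and pair nothing. In all alternatives the mitochondrial share and the mitochondrial to nuclear ratio stayed above equality and the mitochondrial median above 0. The ratio of shares, 1.79, was 1.71 on plate A only, 1.54 on plate B only, 1.61 on both, 1.70 without plate C, 1.84 without plate D, 2.00 as a mean over cells, 1.82 without cells high in markers of the other class and 1.32 with ribosomal and transfer RNA. The mitochondrial to nuclear ratio, 1.92 times apart, was in the same order 2.13, 1.72, 1.86, 1.94, 1.87, 2.21 and 1.82. The mitochondrial median, 0.93, was 0.86 on plate A, 0.67 on plate B, 0.81 on both, 0.86 without plate C, 0.97 without plate D, 1.06 as a mean over cells, 0.99 at 10 CPM or more, 0.85 under TMM and 0.80 under median-of-ratios scaling.

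The nuclear median, -0.04, is too close to 0 to carry a direction: it was -0.13 on plate B, -0.17 on plates A and B together, -0.21 without plate C, 0.13 without plate D, 0.12 as a mean over cells, 0.051 without cells high in markers of the other class and -0.17 under median-of-ratios scaling. The 6 members 2-fold higher in microglia became 16 on plate A, 17 on plate B, 12 on both, 10 without plate D, 17 at 1.5-fold and 1 at 4-fold. The share of all genes moved too: it was 37.2% as reported and, in the same order, 60.9%, 62.7%, 56.2%, 39.7%, 45.1% and 19.9%. The 3 higher in endothelial cells became 14 on plate A, 8 on plate B, 7 on both, 6 without plate C, 1 as a mean over cells, 6 under either scaling, 5 with a pseudocount of 0.1, 14 at 1.5-fold and 0 at 4-fold. Beside them the share of all genes, 22.1% as reported, was 19.8% on plate A, 19.1% on plate B, 19.8% on both and 21.6% without plate C. It was 22.1% as a mean over cells, 23.2% under TMM and 23.9% under median-of-ratios scaling. With that pseudocount it was 23.3%, at 1.5-fold 29.1% and at 4-fold 11.7%. The Cox6b2 share in microglia, 8.30%, was 6.12% on plate A, 9.60% on plate B and 5.21% as a mean over cells. The causes were not tested.

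Alternatives added after seeing the data were cells of 70000 reads or more (ratio of shares 1.74, mitochondrial to nuclear 1.85, mitochondrial median 0.89), each microglia cluster against all endothelial cells, and leaving out the cell with most reads of a member, which left 1 of the 3 higher in endothelial cells and a Cox6b2 share of 5.86%. Clusters 1 to 3 gave ratios of shares of 1.87, 1.95 and 1.33, mitochondrial to nuclear ratios of 1.99, 2.35 and 1.26 and mitochondrial medians of 0.97, 1.06 and 0.57; clusters 2 and 3 gave nuclear medians of -0.27 and 0.037. The other 35 values stayed within the counting interval or within 1.5 times the reported count. Some of them could not move. Microglia sit on plates A and B alone, so leaving out plate C or D cannot change their Cox6b2 share. Dropping the filter cannot change the mitochondrial median, because the unmeasured mitochondrial members have no read. Members with few reads, such as mt-Nd3, Atp5l, Cox6a2 and Ndufa4l2, are limited by depth, and plates A and B by 7 and 10 endothelial cells.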
